A study of Mus musculus with 2 samples.

Results

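Ionotropic receptors are ion channels that open when a neurotransmitter binds to them, and their subunits were read from RNA-seq of mouse dorsal root ganglion (DRG) neuron preparations. The genes were chosen by symbol, with no limit on a measured value, but with earlier results of these data known. They are every gene of the GABA-A, glycine, AMPA, kainate, delta, NMDA and nicotinic acetylcholine receptor families, together with the serotonin 5-HT3 receptor genes Htr3a and Htr3b. This gave 60 of the 24411 genes in the data, held in 82 of 35034 RefSeq transcript rows. Each of 2 pools combined thoracic and lumbar DRG neurons of 10 male C57BL/6 mice (C57BL/6J in the methods of the study) aged 6 to 8 weeks, enriched on a BSA cushion and depleted of B lymphocytes with beads. One pool came from mice given 50% alum, an aluminium salt adjuvant, in 200 µl by the intraperitoneal route on day 0 and day 14, with harvest 14 days after the second injection, and the other from mice given the same injections that also held keyhole limpet hemocyanin (KLH, 100 µg), a mollusc protein used as an antigen. The deposited title of the control library calls it both naïve and alum alone, and it is called the alum pool here. With 1 library per group there is no replicate error, no test of immunization was possible, and the order of genes with close values has no error either.

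The proteins fall into 2 structural classes. GABA-A, glycine, nicotinic and 5-HT3 receptors are Cys-loop channels, rings of related subunits that pass chloride in the first pair and cations in the second pair. AMPA, kainate and NMDA receptors are glutamate-gated cation channels, and the delta receptors are their relatives. In the cell bodies and central terminals of sensory neurons chloride is kept high inside the cell, so that GABA depolarizes them, and GABA-A receptors on the terminals take part in presynaptic inhibition of sensory input.

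Levels are given as TPM, the share of all transcripts that a gene takes after correction for transcript length, scaled alike in each library and summed over the rows of a gene. A gene above 3 TPM was counted as detected, the threshold used in the study's methods. By this measure 29 of the 60 genes were detected in the alum pool and 30 in the alum + KLH pool, with 29 in both, and the single gene detected in 1 pool was Gabra4. These shares of 48.3% and 50% lay near the background of 46.9% and 46.3% of all genes. The summed level of the 60 genes was 2260.1 TPM in the alum pool and 2341 TPM in the alum + KLH pool. TPM carries no read counts, so the number of reads behind a value could not be computed from the files, and an exact 0 is a value listed at 0 with no detection limit attached.

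The preparations carried the markers of sensory neurons. All 11 pan-neuronal genes and all 9 sensory neuron genes examined were above 3 TPM in both pools, as were 6 of 9 Schwann cell and 6 of 6 satellite glia genes. Of the remaining lists 0 of 6 macrophage, 1 of 6 endothelial, 0 of 7 spinal cord and motor neuron and 2 of 6 smooth muscle and fibroblast genes passed in both pools. In the alum and alum + KLH pools the pan-neuronal genes summed to 17935 and 17664 TPM. The sensory neuron genes summed to 8502 and 8013 TPM. The Schwann cell genes summed to 2194 and 2157 TPM, and the satellite glia genes to 1479.7 and 1365 TPM. Each of these sums was lower in the alum + KLH pool. Ionotropic receptors are also carried by glia, and in these mixed pools the cell type behind a value, or fewer cells of a type against less RNA per cell, cannot be told apart.

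The sequences of the alternative exons come first, because several of these genes were read as more than one transcript and the rows differ by short coding segments. All 82 rows were paired with a transcript of the GENCODE M21 annotation (GRCm38, the same assembly as mm10), from which the exon sequences were read. AMPA receptor subunits carry 1 of 2 mutually exclusive exons of 115 bases, named flip and flop, that form part of the ligand-binding domain and are known to set how fast the channel desensitizes. The pairs of Gria1 (chromosome 11, plus strand, flop at chr11:57309769-57309883 and flip at chr11:57310608-57310722) and Gria4 (chromosome 9, minus strand, flop at chr9:4432773-4432887 and flip at chr9:4427030-4427144) are shown 5′ to 3′, with capitals at the bases that differ between flop and flip of the same gene.
Gria1 flop: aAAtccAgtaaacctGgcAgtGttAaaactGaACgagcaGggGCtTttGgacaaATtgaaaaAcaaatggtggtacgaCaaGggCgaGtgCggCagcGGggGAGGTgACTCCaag
Gria1 flip: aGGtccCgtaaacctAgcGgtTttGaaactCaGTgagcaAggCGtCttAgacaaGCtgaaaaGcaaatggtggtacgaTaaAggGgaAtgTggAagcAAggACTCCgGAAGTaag
Gria4 flop: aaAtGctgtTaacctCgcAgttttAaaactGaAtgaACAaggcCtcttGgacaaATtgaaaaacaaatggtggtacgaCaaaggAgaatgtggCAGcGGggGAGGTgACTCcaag
Gria4 flip: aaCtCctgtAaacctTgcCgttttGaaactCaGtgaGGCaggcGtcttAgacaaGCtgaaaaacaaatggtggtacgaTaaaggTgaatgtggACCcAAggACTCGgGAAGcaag
Flop and flip shared 79 of 115 bases in Gria1 and 84 of 115 in Gria4.

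Another Gria4 row, NM_001113181, ends early. It has 11 exons and 1299 coding bases, against 17 exons and 2706 coding bases for the full-length rows, and its own last coding bases (chr9:4478823-4478852, minus strand) lie upstream of the flip and flop exons, so that neither exon is in it. The 63-base exon of Grin1 (chr2:25311343-25311405, minus strand) adds a cassette to the extracellular amino-terminal part, and the 87-base exon of Grik1 (chr16:87896809-87896895, minus strand) lengthens its intracellular tail. These 3 segments are printed because the row values below turn on them, with no letter in capitals.
Gria4 short-form end: cctctgatgaagaatcctattttaagaaat
Grin1 amino-terminal cassette: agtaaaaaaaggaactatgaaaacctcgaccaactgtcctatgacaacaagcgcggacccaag
Grik1 extra exon: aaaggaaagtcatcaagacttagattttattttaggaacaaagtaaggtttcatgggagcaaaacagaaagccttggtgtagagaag

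The GABA-A receptors are usually built from alpha, beta and gamma subunits, and 19 genes of the family were measured. Gabra2, known from presynaptic inhibition in the spinal cord, was at 64.5 TPM in the alum pool and 68.2 TPM in the alum + KLH pool. Gabrg1 was at 55.0 and 68.8 TPM, and Gabra3 at 30.3 and 31.9 TPM. Lower still were Gabrb2 at 26.9 and 31.3 TPM and Gabra5, a subunit of extrasynaptic receptors, at 14.6 and 14.6 TPM. Gabra4 stood at the threshold, with 2.37 TPM in the alum pool and 3.55 TPM in the alum + KLH pool. All 6 of these genes had a higher value in the alum + KLH pool, by differences that ranged from 0.01 to 0.43 on the log2 scale of (TPM + 1). The 0.43 is that of Gabra4, which passed the threshold only through the alum + KLH pool, so that its direction was fixed by the threshold. The next largest was 0.32, for Gabrg1. Among all genes above 3 TPM in at least 1 pool, 43.6% were higher in the alum + KLH pool.
A further 10 GABA-A genes were at or below 3 TPM in both pools. The highest of them was Gabrb1 at 2.84 and 2.90 TPM, followed by Gabrg3 at 2.01 and 1.39 TPM. The delta, epsilon, pi and theta subunits (Gabrd, Gabre, Gabrp and Gabrq) summed to 0.259 and 0.382 TPM, and the 3 rho subunits, which form the receptors once called GABA-C, to 0.716 and 1.04 TPM. Gabra6, a subunit of cerebellar granule cells, was at 0.0257 TPM in the alum pool and listed at 0 in the alum + KLH pool.

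Several GABA-A genes lie in clusters on the chromosomes (RefSeq, GRCm38.p6), and neighbours differed widely in level. On chromosome 5 (70751047 to 72149572) Gabra2 and Gabrg1 lie beside Gabra4 and Gabrb1, both within 1 TPM of the threshold of 3 TPM. On the X chromosome Gabra3 was the only detected gene of a group with Gabre and Gabrq. The cluster sum on chromosome 5 was 125 TPM in the alum pool and 143 TPM in the alum + KLH pool, and that on the X chromosome was 30.4 and 32.1 TPM.

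Glycine receptors showed a single detected gene. Glrb, the beta subunit that binds the scaffold protein gephyrin and that does not form channels without an alpha subunit, had the highest level of all 60 genes, 503 TPM in the alum pool and 559 TPM in the alum + KLH pool. Only 1.38% and 1.18% of all genes in the data were higher. The 4 alpha subunit genes, Glra1 to Glra4, summed to 0.593 and 0.651 TPM, and the highest of them was Glra2 at 0.350 and 0.379 TPM. Glrb therefore made up 99.9% of the family sum in each pool. Glra3 was listed at 0 in the alum pool and at 0.0389 TPM in the alum + KLH pool.

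Among the glutamate receptors the kainate family had the highest sum, 394 TPM in the alum pool and 356 TPM in the alum + KLH pool. Grik1, which encodes GluK1, a subunit known from small-diameter sensory neurons, supplied 92.8% and 93.1% of it. Its level was 366 TPM in the alum pool and 331 TPM in the alum + KLH pool, second only to Glrb among the 60 genes. The high-affinity subunit Grik4 was at 13.2 and 10.8 TPM and Grik2, which encodes GluK2, at 11.6 and 10.7 TPM. Grik3 (2.42 and 2.29 TPM) and Grik5 (1.08 and 0.687 TPM) were below the threshold in both pools. All 3 detected kainate genes had a lower value in the alum + KLH pool, with log2 ratios of -0.14 for Grik1, -0.27 for Grik4 and -0.10 for Grik2. So had 6569 of all 11648 genes above 3 TPM in at least 1 pool. Each of the 3 ratios lay within the SD over genes of similar level. That SD was 0.16 at a mean over 100 TPM, the class of Grik1, and 0.33 at 10 to 30 TPM, the class of Grik4 and Grik2.

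All 4 AMPA receptor genes were detected. Gria4 led with 157 TPM in the alum pool and 174 TPM in the alum + KLH pool. Gria2, whose edited form makes the channel impermeable to calcium, was at 44.6 and 53.6 TPM. Gria3 was at 21.6 and 22.5 TPM and Gria1 at 12.0 and 10.9 TPM. The family sum was 235 TPM in the alum pool and 261 TPM in the alum + KLH pool, and Gria4 supplied 66.8% and 66.7% of it.
Most of the Gria4 signal lay on the short row that stops before the flip and flop exons. NM_001113181 was at 95.7 TPM in the alum pool and 114 TPM in the alum + KLH pool, or 61.0% and 65.2% of the gene. Full-length Gria4 was at 61.2 and 60.8 TPM. Without the short row the AMPA sum was 139 and 148 TPM, and Gria4 was still the highest AMPA gene, ahead of Gria2 by less.
Within full-length Gria4 the flop row was at 42.2 TPM in the alum pool and 47.8 TPM in the alum + KLH pool, and the flip row at 19.0 and 13.0 TPM. Flop thus formed 69.0% and 78.6% of the full-length total. In Gria1 the flop row was at 9.90 and 6.91 TPM, and flop formed 82.4% and 63.6% of the gene. Part of the flip signal of Gria1 in the alum + KLH pool came from NM_001252403, a row with a shorter coding sequence of 2514 bases that was at 1.68e-08 TPM in the alum pool and 1.70 TPM in the alum + KLH pool. In both genes and both pools flop was the higher form, while the flop share was higher in the alum + KLH pool for Gria4 and lower for Gria1. In Gria2 the flip row was at 16.7 and 19.8 TPM, or 37.4% and 36.9% of the gene, and the other 2 rows are paired with 1 annotated transcript that holds the flop exon.
The rows of one gene share most of their sequence. Of the 31-base words of a Gria4 row, 25.6% occur in no other row of the gene for the short row, 2.57% for the flop row and 2.67% for the flip row, so that a small part of the sequence separates flip from flop. The same share was 2.63% for the flop row of Gria1 and 3.50% for the flip row of Gria2.

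The NMDA receptor genes were uneven. Functional glutamate-gated NMDA receptors need GluN1 together with a GluN2 subunit, while GluN3 subunits bind glycine. Grin1, which encodes GluN1, was at 13.9 TPM in the alum pool and 11.3 TPM in the alum + KLH pool. Grin3a was at 14.7 and 14.7 TPM. The 4 GluN2 genes, Grin2a to Grin2d, summed to 0.198 TPM in the alum pool and 0.102 TPM in the alum + KLH pool, and the highest single value was 0.128 TPM, for Grin2d in the alum pool. Grin3b was at 0.0389 and 0.0165 TPM. Of the Grin1 rows, NM_001177656, with the amino-terminal cassette printed above, held 93.1% and 95.7% of the gene. Only 2.33% of the 31-base words of this row occur in no other row of the gene, so that a small part of the sequence carries this share. Of all the words of Grin1, 23.1% also occur in transcripts of its antisense neighbour Grin1os. Grin2a shares 48.9% of its words with Gm7328.
Of the delta receptor genes, Grid1 was below the threshold at 1.77 and 2.13 TPM.

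Neuronal nicotinic receptor genes summed to 250.4 TPM in the alum pool and 245 TPM in the alum + KLH pool, and 6 of 11 were detected. Chrna6, which in the brain is found mainly in dopaminergic and visual pathways, was at 76.9 and 73.6 TPM. Chrna7, whose product forms channels on its own that pass much calcium, was at 75.8 and 73.6 TPM. Together they formed most of the alpha sum, with 40.3% and 39.2% from Chrna6 and 39.7% and 39.2% from Chrna7. The ganglionic subunit Chrna3 was at 32.1 TPM in the alum pool and 34.2 TPM in the alum + KLH pool.
Among the beta subunits Chrnb2 was at 32.5 and 31.8 TPM, Chrnb3, an accessory subunit, at 19.2 and 18.1 TPM and Chrnb4 at 7.68 and 7.24 TPM. Of the 31-base words of Chrnb2, 15.4% also occur in transcripts of Adar. Chrnb3 lies next to Chrna6 on chromosome 8 (27368711 to 27413944), and both were detected. Chrna3 and Chrnb4 lie with Chrna5 on chromosome 9 (54980827 to 55048953), where Chrna5 was at 2.63 and 2.89 TPM, just under the threshold. Chrna4, a main partner of Chrnb2 in the brain, was at 0.605 and 0.603 TPM. Of the other undetected genes Chrna10 was at 1.68 and 1.42 TPM (38.9% of its 31-base words also occur in transcripts of Art1), Chrna2 at 1.30 and 1.36 TPM, and Chrna9, known from hair cells, was listed at 0 in the alum pool and at 0.0557 TPM in the alum + KLH pool.
Of the 5 muscle-type genes, Chrnb1 was at 5.02 TPM in the alum pool and 3.41 TPM in the alum + KLH pool, and Chrna1 at 3.04 and 3.77 TPM. The subunits that complete the muscle receptor were at or near 0. Chrng was listed at 0 in both pools, Chrnd at 0 and 0.0734 TPM, and Chrne at 0.0416 and 0.0716 TPM. Of 8 skeletal muscle markers 0 were above 3 TPM. Their sum was 0.554 TPM in the alum pool and 0.457 TPM in the alum + KLH pool, and Ckm was listed at 0 in both.

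The 5-HT3 receptor is the ligand-gated channel among serotonin receptors, and both of its genes were detected. Htr3a, which can form channels on its own, was at 121 TPM in the alum pool and 129 TPM in the alum + KLH pool. Htr3b, which needs Htr3a, was at 23.4 and 23.8 TPM. The genes lie side by side on chromosome 9 (48899213 to 48964990), and Htr3a formed 83.8% and 84.4% of their sum. Nearly all of the Htr3a signal lay on NM_001099644, a row without 18 bases (chr9:48899991-48900008) that open the last exon of NM_013561. The latter was at 0.000233 and 5.50e-05 TPM. Only 1.43% of the 31-base words of NM_001099644, and 5.99% of those of NM_013561, belong to that row alone.

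**Figure D1:**
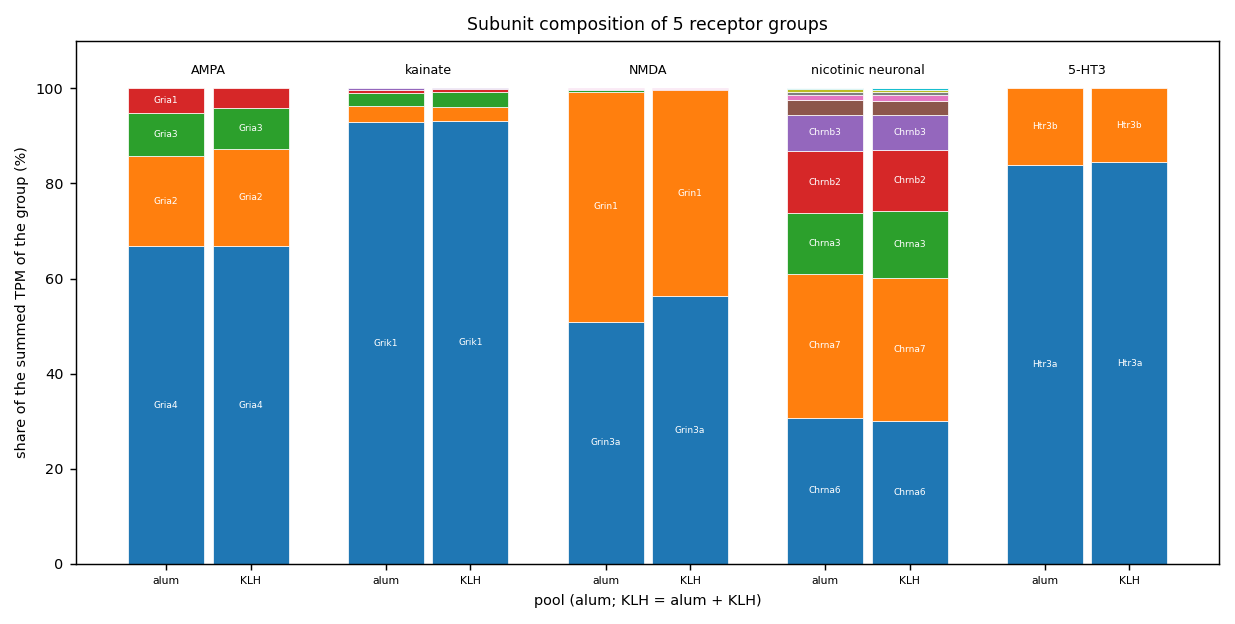
Share of the summed TPM of a receptor group, in %, contributed by each subunit gene in 5 groups, with the alum pool on the left and the alum + KLH pool on the right of each pair; subunits above 5% are named. Grik1 fills 92.8% and 93.1% of the kainate bars, while Chrna6 and Chrna7 fill similar parts of the neuronal nicotinic bars.

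The pools were compared gene by gene. Treatment and library cannot be told apart with 1 library per group, so the values describe the pools and do not test immunization. Each level was raised by 1 TPM, which makes differences between low genes look smaller, and the log2 of the alum + KLH value over the alum value was taken for the 30 receptor genes above 3 TPM in at least 1 pool. Of these 30 genes, 0 reached 1.5-fold in favour of the alum + KLH pool and 0 in favour of the alum pool. The background over all 11648 genes that passed the same filter was 1.00% higher and 1.55% lower in the alum + KLH pool. The median log2 ratio of the 30 genes was 0.03, beside -0.02 over all genes tested, and 18 of the 30 were above 0, beside 43.6% of all genes. The 18 include Gabra4, which passed the filter only through the alum + KLH pool.

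A lower limit of 1.25-fold was added after the values had been seen. Gabra4 was then higher in the alum + KLH pool, with a log2 ratio of 0.43, and Chrnb1 lower, with -0.45. Gabra4 had passed the filter only through the alum + KLH pool, so its call is no support for a difference. These calls are 1 of 30 genes in each direction, beside 2.29% of all genes higher and 5.39% lower. Both had a mean under 10 TPM, a class that holds 5 of the receptor genes, so that 2 of 5 differed by this much, and in which 16.9% of all genes did, while 6.13% did at a mean of 10 to 30 TPM, 2.91% at 30 to 100 TPM and 2.27% above 100 TPM. No receptor gene in the 3 higher classes, which hold 10, 8 and 7 of them, reached 1.25-fold with 1 TPM added. Gabrg1 lay at the limit and passed it, as a gene higher in the alum + KLH pool, with 0.1 or 0.5 TPM added, after rescaling by the median ratio and without microRNAs and small nucleolar RNAs, which made 2 genes higher and 1 lower. With the highest row of each gene Gria1 passed it as a lower gene, with a log2 ratio of -0.46, which made 1 higher and 2 lower.

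The log2 ratio of Gabrg1, 0.32, compared with an SD of 0.17 over the 3027 genes with a mean of 30 to 100 TPM. Gria2, in the same class, had a log2 ratio of 0.26. The other 28 of the 30 receptor genes lay within 1 SD of their level class, and 9.24% of all genes tested lay outside theirs. The lowest ratios after that of Chrnb1 were -0.28 for Grin1 and -0.27 for Grik4, within the SD of 0.33 of genes with a mean of 10 to 30 TPM. Across families the median log2 ratio was 0.07 for the 9 GABA-A genes (Gabra4 included), 0.11 for the 4 AMPA genes, -0.14 for the 3 kainate genes and -0.05 for the 6 neuronal nicotinic genes. The spread of these values has no replicate check.

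**Figure D2:**
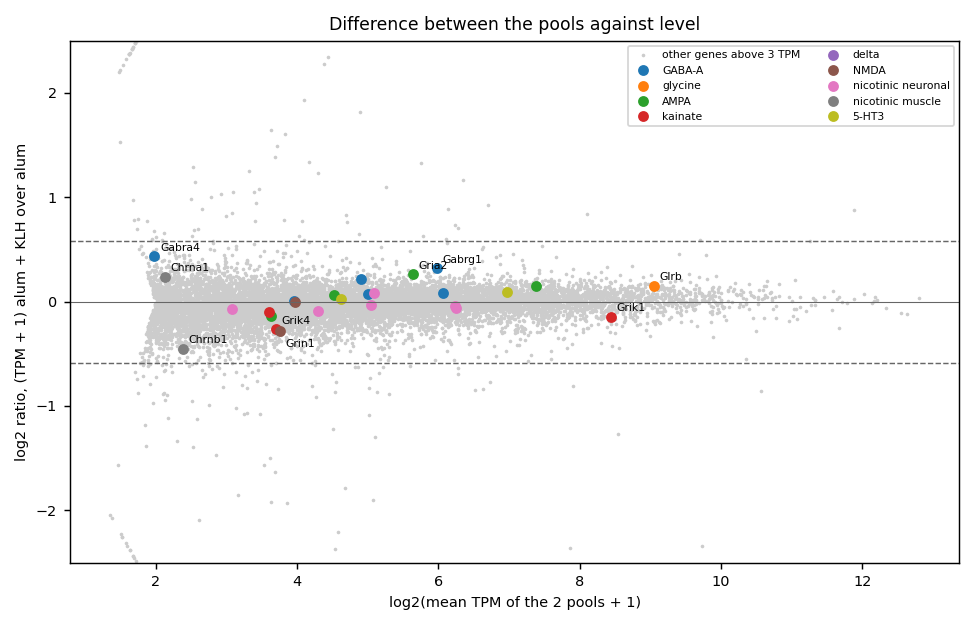
Ratio of the alum + KLH pool to the alum pool as log2 of (TPM + 1) (vertical axis) against log2 of the mean TPM + 1 (horizontal axis) for genes above 3 TPM in at least 1 pool, with 26 receptor genes coloured by family; dashed lines mark 1.5-fold, and 110 genes beyond 2.5 on the vertical axis are not drawn. All 26 coloured genes lie between the dashed lines.

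Single transcript rows differed more than gene sums. Of the 39 receptor rows above 3 TPM in at least 1 pool, 2 reached 1.5-fold higher in the alum + KLH pool and 0 lower, beside 3.50% and 5.01% of all 14215 rows tested. One of them was Glrb NM_010298, which was at 138 TPM in the alum pool and 219 TPM in the alum + KLH pool. The other Glrb row, NM_001281969, was lower in the alum + KLH pool, at 340 TPM against 365 TPM in the alum pool. Both rows are paired with 1 annotated transcript of 10 exons, so that no coding difference between them could be read from the annotation. Of its 2999 words of 31 bases, 0 belong to a single row. The annotated sequence therefore does not resolve the split between the Glrb rows, nor the 1.5-fold call of NM_010298. With the highest row in place of the sum, the log2 ratio was -0.10 for Glrb, of opposite sign to the 0.15 of the sum, and 0.08 for Gria2. The flip row of full-length Gria4, at 19.0 and 13.0 TPM, was the lowest ratio among these rows, -0.51 on the log2 scale.
In Grik1 the row without the 87-base exon was at 346 and 311 TPM and the row with it at 19.9 and 19.6 TPM, so the exon was in 5.45% and 5.93% of the gene. Only 0.823% of the 31-base words of the row without the exon, and 3.59% of those of the row with it, belong to that row alone. Of the 60 genes, 44 have 1 row and need no such division.

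**Figure D3:**
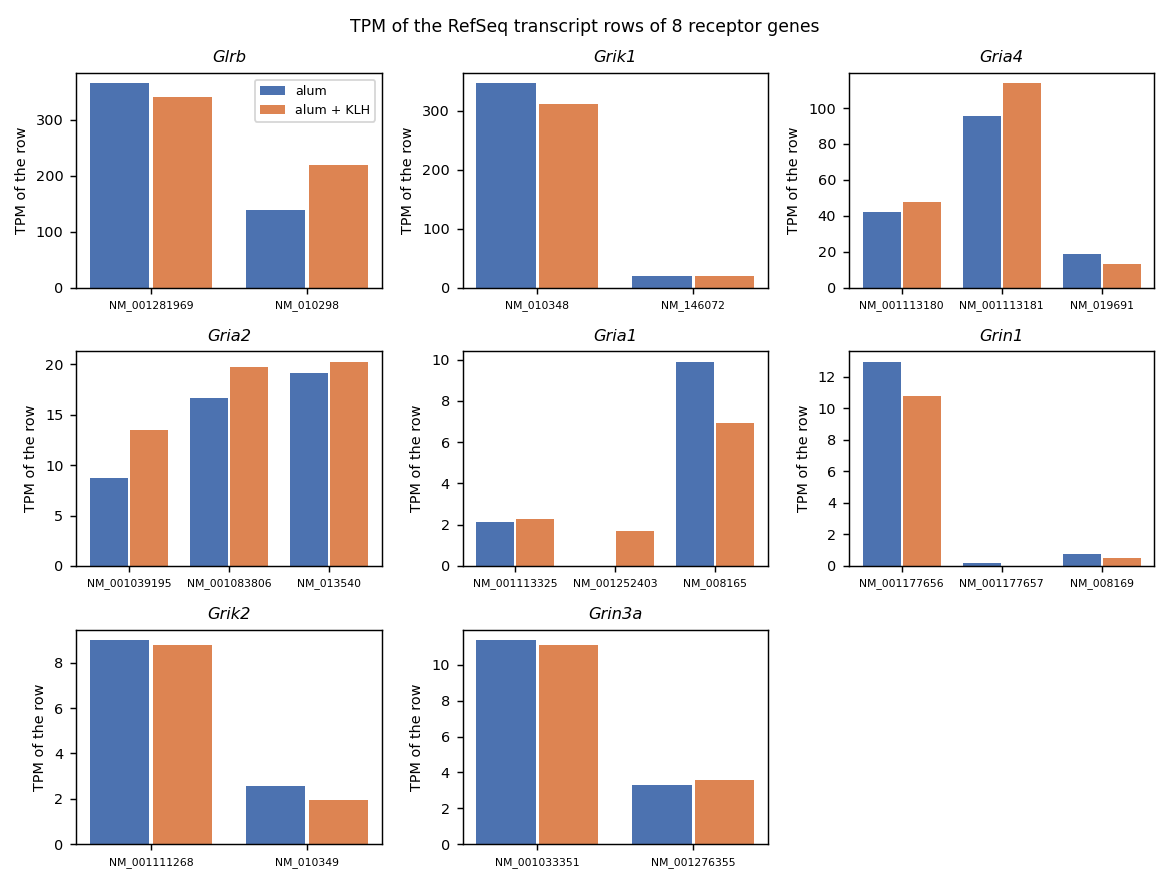
TPM of each RefSeq row (bars, axis from 0) of 8 receptor genes in the alum pool and the alum + KLH pool, 1 library each. The short Gria4 row NM_001113181 is the highest of its gene. The 2 Glrb rows differ between the pools in opposite directions, but the annotated sequence does not separate them.

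Receptor subunits work with scaffolds, auxiliary subunits and chaperones, and 4 lists of such genes were read alongside. The background for their detection is 46.9% of all genes above 3 TPM in the alum pool and 46.3% in the alum + KLH pool. Among 17 partners of GABA-A and glycine receptors 15 were detected in each pool, and the highest were Gabarapl2 at 1341 and 1400.2 TPM and Gabarap at 441 and 421 TPM, both of the family of small proteins that act in receptor transport and autophagy. Gphn, which encodes gephyrin, was at 52.7 and 53.8 TPM.
Of 32 AMPA and kainate receptor partners 23 were above 3 TPM in both pools, led by Olfm1 at 332 and 296 TPM and Nsf, a membrane fusion ATPase that binds GluA2, at 327 and 346 TPM. Neto2, an auxiliary subunit of kainate receptors, was at 51.9 and 56.0 TPM, and Nptxr was listed at 0 in both pools. A list of 15 genes held NMDA receptor partners and scaffolds together with cerebellin (Cbln) genes, which are not NMDA receptor partners. Of these 15 genes 7 passed in both, led by the cerebellin gene Cbln2 at 74.6 and 72.3 TPM and the scaffold gene Dlg2 at 72.9 and 80.2 TPM. Of 16 nicotinic receptor partners 12 passed in the alum pool and 11 in the alum + KLH pool, led by Vsnl1 at 433 and 487 TPM and Tmem35, an assembly chaperone also called NACHO, at 159 and 161 TPM. Slurp1 and Psca were listed at 0. In the 4 lists 0 genes were 1.5-fold or more apart in either direction, beside the 1.00% higher and 1.55% lower of all genes.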

How the data were processed

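One library per group was analysed. Each deposited file column gives TPM by RefSeq transcript row. According to the submitters' processing notes and the study's methods, the authors prepared stranded mRNA libraries, trimmed paired-end reads with cutadapt and quantified them with kallisto on the mm10 transcriptome; versions are not given in the sources used here. kallisto divides reads among similar sequences, so the value of a row depends on the transcripts annotated. Receptor genes were selected by symbol pattern, and TPM was summed per gene. All 60 matched the RefSeq gene table, and counts cover all of them, but 4 are not reported here by name. The members, the lists and the limits were chosen with earlier results of these data known, and further undetected genes, Gphn, Neto2 and the exons shown were picked after their values had been seen. Named genes are, with that exception, all receptor genes above 3 TPM in at least 1 pool, the highest undetected gene of each family and those at 0, and the 2 highest partners of each list. Ratios used a pseudocount of 1 TPM and limits of 1.5-fold and 1.25-fold. Level classes were split at a mean of 10, 30 and 100 TPM. How often either fold limit calls a gene by error in these data was not tested. Alternatives were thresholds, pseudocounts, scaling, the highest row, and coding rows. Python 3.11.15, numpy 2.4.6, pandas 2.3.3 and matplotlib 3.10.9 were used.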

Additional observations from a re-analysis of the deposited data

How the results depend on the processing

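At 1 TPM 38 and 37 genes were detected in the alum and alum + KLH pools, and at 10 TPM 25 and 25. The count of genes at least 1.5-fold apart stayed at 0 in both directions under pseudocounts of 0.1 and 0.5 TPM, rescaling by the median ratio of 0.986, TPM recomputed without microRNAs and small nucleolar RNAs, the highest row of each gene, coding rows, no filter and a filter at 10 TPM. A limit of 1.25-fold, added after the data were seen, gave 1 higher and 1 lower, also with coding rows. It gave 2 higher and 1 lower with pseudocounts of 0.1 and 0.5 TPM, after rescaling and without small RNAs, where Gabrg1 was the added gene, and 1 higher and 2 lower with the highest row, where Gria1 was. The median log2 ratio ranged from 0.01 to 0.05. Of 180 ratios of single genes under the alternatives, 178 moved by less than 1 SD of their level class. The 2 others came from taking the highest row, with Glrb at -0.10 and Gria2 at 0.08. The sign turned in 5 cases, of Glrb, Gria3 and Grin3a. The highest row also lowered the glycine receptor sum to 365 TPM in the alum pool and 340 TPM in the alum + KLH pool, and the AMPA receptor sum to 139 and 155 TPM, since a single row of a gene was then counted. No paired analysis was possible because each group has 1 library. The files give no read counts, which limits what can be said of genes under 3 TPM.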
